A study of Mus musculus with 2 samples.

Results

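The 10 genes described here are markers and regulators of satellite cells, the stem cells of skeletal muscle that lie between a fibre and its basal lamina. They are Pax7, Pax3, Calcr, Cdh15, Spry1, Hey1, Heyl, Hes1, Itga7 and Sdc4, chosen by symbol from the 21851 protein-coding genes of the annotation. Each was examined over its gene body and 50 kb either side. The assay was DNase-seq, in which the enzyme DNase I cuts accessible DNA in isolated nuclei, and the tissue was the gastrocnemius, a calf muscle. The 2 libraries (replicate 1 and replicate 2) came from male B6CASTF1/J mice, an F1 hybrid of C57BL/6J and CAST/EiJ, aged 36 days. The labels number them as biological replicates from differently numbered males, yet give both the same donor entry, so that they are separate animals is not certain and the spread between them may be technical. They form 1 group with no treatment and no second group, so no contrast between conditions exists and nothing below is a test of one. Whole muscle was used, so the nuclei of fibres, satellite cells and all other residents were mixed, and fewer open nuclei and less cleavage per nucleus cannot be told apart.

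As background, Pax7 and Pax3 are paired-box transcription factors that specify muscle progenitors, and Pax7 marks nearly every satellite cell of the adult. Satellite cells are held out of the cell cycle largely by Notch signalling, in which a cleaved receptor joins the DNA-binding protein RBPJ and switches on repressors of the Hes and Hey families. Spry1 dampens receptor tyrosine kinase signalling and supports the return to quiescence. Calcr, the calcitonin receptor, Cdh15 (M-cadherin), Itga7 (integrin alpha 7) and Sdc4 (syndecan 4) are surface proteins used to label or sort these cells. Several are not exclusive to them: Itga7 is also found on fibres, and Hes1, Hey1, Heyl and Sdc4 are active in many cell types, vessel cells among them.

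The shorter of the authors' 2 peak lists per library held 50760 peaks in replicate 1 and 49230 in replicate 2. Each peak has a value, the authors' signal, whose scaling is not given in the sources used here, so values were ranked only within a library. A region is called replicated where peaks of both libraries overlap, and it is called a gene's own where that gene holds the nearest coding transcription start site (TSS). The number of reads is unknown. As a check of the tissue, 7 of 8 fibre markers had a promoter peak in both libraries, among them Ckm, muscle creatine kinase, at 6.45 in replicate 1 and 3.37 in replicate 2. Promoter peaks in both libraries were found at 2 of 6 satellite cell markers, 4 of 7 endothelial, 2 of 7 smooth muscle and pericyte, 4 of 6 fibro-adipogenic, 2 of 5 Schwann cell and 0 of 5 macrophage markers, against 54.2% of all coding genes. In the longer lists these counts were 3, 7, 3, 4, 3 and 1, with 8 of 8 for fibres, against 59.0% of coding genes. Most of these markers had an observed over expected CpG ratio below 0.6 around the TSS. Of coding genes below that ratio 24.1% had a promoter peak in both shorter lists, and of those at or above it 87.5%. At or above it were 2 of 8 fibre, 2 of 6 satellite cell, 1 of 7 endothelial and 1 of 7 smooth muscle and pericyte markers. So were 0 of 6 fibro-adipogenic, 1 of 5 Schwann cell and 0 of 5 macrophage markers. The part that these cell types have in the signal of any single gene was not tested.

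A promoter peak, meaning a peak within 500 bp of a coding TSS, was present in both libraries at 6 of the 10 satellite cell genes (60%), against 54.2% of all coding genes. The 6 were Hes1, Hey1, Heyl, Spry1, Sdc4 and Cdh15. Pax7 had one in replicate 2 alone, and Pax3, Calcr and Itga7 had none in either library. The median promoter value of the 6 was 5.65 in replicate 1 and 3.72 in replicate 2, close to the 5.73 and 3.95 of the 11849 coding genes with a promoter peak in both. The share of open promoters among these genes was thus near the background. In replicate 1 taken by itself 6 had one, against 55.8% of coding genes, and in replicate 2 by itself 7 did, against 57.1%. Of both libraries again, the longer peak lists gave 6 (coding genes 59.0%), peaks no lower than the median 6 (47.5%), a limit of 1000 bp 6 (55.5%), all annotated transcripts 6 (55.7%) and a limit of 250 bp 5 (52.7%).

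**Figure D1:**
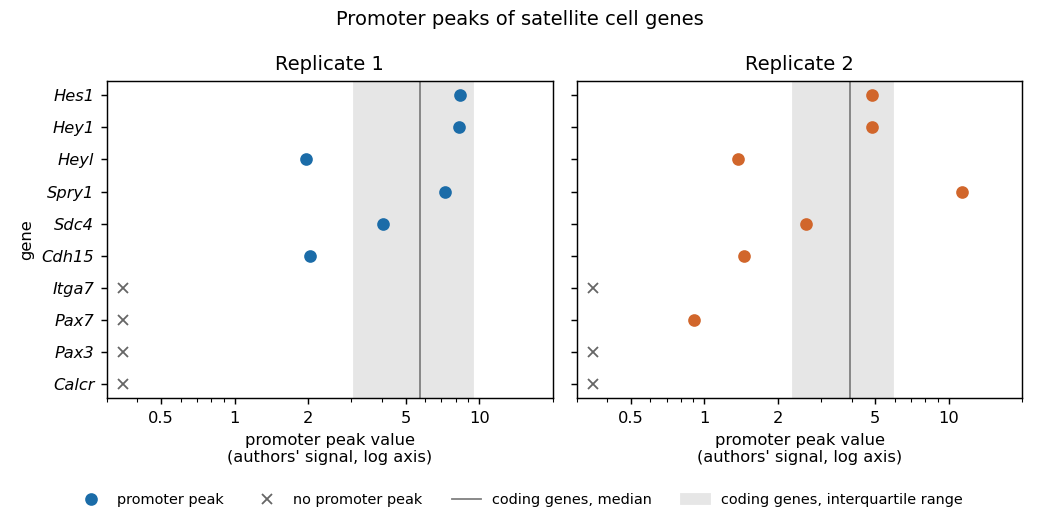
Value of the highest promoter peak of each of the 10 genes in replicate 1 (left) and replicate 2 (right), on log axes in the authors' signal units, whose scaling is not known. Crosses mark genes with no promoter peak, and the grey line and band give the median and interquartile range of coding genes with a promoter peak in both libraries. Hes1 and Hey1 lie above the median in both panels, Heyl, Sdc4 and Cdh15 below it, and Spry1 stands highest in replicate 2 at 11.3.

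Across the 10 windows there were 49 replicated open regions, 33 of them nearest to the gene itself and 16 nearest to a neighbour. A further 44 regions were called in a single library, 21 in replicate 1 and 23 in replicate 2. These had a median rank at percentile 34.8 of the replicate 1 list and 10 of the replicate 2 list, neighbours' regions included. The 33 own replicated regions, without those of neighbours, ranked higher, at median percentiles of 60.0 and 64.4. Requiring a call in both libraries itself favours stronger peaks. The same ranks over the genome are not given here, so the difference is not a trait of these genes. The replicate 2 median of the single-library regions rests on the Spry1 window, which held 12 of the 23, and was 28.4 over the other 11. The windows, neighbours' regions included, held a median of 4.31 replicated regions per 100 kb (range 0 to 8.60). Over all coding genes the median was 2.36 per 100 kb, with an interquartile range of 0.785 to 4.6 that holds the members' median. Heyl (8.60), Hes1 (7.74) and Sdc4 (7.52) had the densest windows and Calcr and Pax3 the emptiest, at 0. All coding genes with no replicated region in such a window made up 19.9%. Counting peaks of 1 library gave 73 in replicate 1 and 78 in replicate 2, so the total depends on whether both are required.

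**Figure D2:**
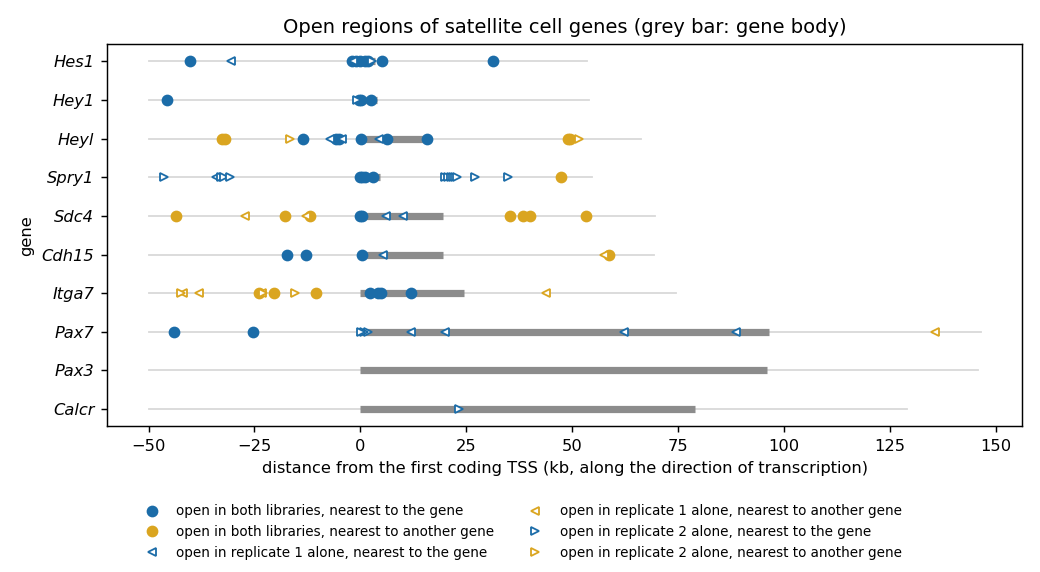
Open regions in the gene body (grey bar) and 50 kb either side of each gene, drawn by distance in kb from the first coding TSS along the direction of transcription. Filled circles are regions open in both libraries, triangles those in 1 library, blue those nearest to the gene and yellow those nearest to a neighbour. Pax3 has no region, Calcr has 1, and the 12 regions of Spry1 in replicate 2 alone form groups on both sides of the gene.

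Pax7 (chromosome 4, 139737062 to 139833528, minus strand, ENSMUSG00000028736.13) had no peak at its start site in replicate 1 and a pair of weak ones in replicate 2. The higher of these had a value of 0.907, at percentile 31.0 of the replicate 2 list, and lay 0.828 kb downstream of the first of its 2 coding TSSs. The other, over that TSS, had 0.854. In replicate 1 the lowest false discovery rate (q-value) within 500 bp of a coding TSS of Pax7 was 0.0494, just below the limit of 0.05 at which runs of bases are listed. In replicate 2 it was 1.11e-06. The Pax7 promoter was thus called in 1 library only, as was true of 2.88% of coding genes for replicate 2 alone and 1.59% for replicate 1 alone. The longer peak list of replicate 1 did not hold it either. The replicate 2 peak is shown because it is the stronger of the 2 calls at this promoter, on the minus strand of mm10 (chr4:139832601-139832800), with capitals for bases inside replicate 2 footprints, short protected stretches within open DNA.
Pax7 promoter: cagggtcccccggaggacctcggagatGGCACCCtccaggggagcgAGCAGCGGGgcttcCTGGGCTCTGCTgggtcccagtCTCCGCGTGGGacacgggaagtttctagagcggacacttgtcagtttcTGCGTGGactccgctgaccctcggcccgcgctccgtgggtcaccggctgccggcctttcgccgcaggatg
Replicate 1 had no footprint in this stretch, whereas replicate 2 had 5.

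The strongest replicated region nearest to Pax7 lay outside the gene, 25.3 kb upstream, at 2.84 in replicate 1 and 2.25 in replicate 2 (percentiles 70.4 and 71.3). It held 2 footprints found in both libraries. A second replicated region lay 43.9 kb upstream with 0.875 in replicate 1 and 0.894 in replicate 2. Inside the 96.5 kb gene body no region was replicated in the shorter lists. There, 4 intronic regions were open in replicate 1 alone, the highest at 1.64, and 1 intronic region in replicate 2 alone at 0.716, besides both promoter peaks. In the longer lists 3 intronic regions of Pax7 were found in both libraries, 11.9, 86.1 and 88.6 kb downstream of the start, with values of at most 1.13 in replicate 1 and 0.959 in replicate 2. The upstream region is shown whole, on the minus strand (chr4:139858761-139858940), with capitals for bases inside footprints of both libraries.
Pax7 upstream: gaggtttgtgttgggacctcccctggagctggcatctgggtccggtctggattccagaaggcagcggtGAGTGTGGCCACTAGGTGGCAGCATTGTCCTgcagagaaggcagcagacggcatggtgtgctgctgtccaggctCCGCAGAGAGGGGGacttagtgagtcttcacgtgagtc
The longer run of capitals holds CCACTAGGTGGC, letters of the binding motif of CTCF, a factor that anchors chromatin loops.

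Pax3 (chromosome 1, 78101267 to 78197134, minus strand) was the emptiest window of the 10. In the embryo it acts upstream of muscle formation, and in adults it is kept on in the satellite cells of some muscles. Neither library had a peak of the shorter list within the gene or 50 kb either side, and the longer lists held no replicated region there. Of the whole 196 kb window, 146 bases passed q of 0.05 in replicate 1, in a single block with a lowest q of 0.0117, and none did in replicate 2. No footprint of either library fell in the window. No run at or below 0.05 lay within 500 bp of its 2 coding TSSs, which was also so for 34.7% of coding genes.

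The Notch effectors Hes1 and Hey1 had the strongest promoters of the 10 in replicate 1, and they ranked close to one another in both libraries. Hes1, a basic helix-loop-helix repressor, had a promoter value of 8.35 in replicate 1 and 4.85 in replicate 2 (percentiles 92.6 and 90.1 of all peaks). Hey1, a related repressor, had 8.24 in replicate 1 and 4.84 in replicate 2 (92.4 and 90.0). Among coding promoters with a peak both stood somewhat above the middle, at percentiles 70.2 and 64.4 for Hes1 and 69.4 and 64.2 for Hey1. Heyl, the third of these repressors, had 1.95 in replicate 1 and 1.37 in replicate 2, at percentiles 15.0 and 13.5 among coding promoters. The Heyl promoter was therefore the weakest of the 6 replicated ones in both libraries, with Cdh15 next at 2.02 in replicate 1 and 1.45 in replicate 2.

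The Hes1 promoter (chromosome 16, gene at 30064384 to 30067796, plus strand) is shown because the promoter carries an RBPJ site known from work on Notch targets. The replicated region spans chr16:30065121-30065380, and capitals mark bases inside footprints of both libraries.
Hes1 promoter: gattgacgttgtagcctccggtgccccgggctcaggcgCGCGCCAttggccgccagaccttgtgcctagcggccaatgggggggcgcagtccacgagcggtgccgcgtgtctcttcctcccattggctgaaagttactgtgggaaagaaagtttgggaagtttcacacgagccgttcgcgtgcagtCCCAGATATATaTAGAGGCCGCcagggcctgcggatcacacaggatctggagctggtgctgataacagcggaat
The RBPJ letters gtgggaa, 78 bp before the TSS, lay between the protected stretches and in no footprint of either library. The second protected stretch, centred 23 bp before the TSS in replicate 1, covers an AT-rich run. The Hey1 promoter is shown for contrast (chr3:8667021-8667260, minus strand), since protected bases make up more of it.
Hey1 promoter: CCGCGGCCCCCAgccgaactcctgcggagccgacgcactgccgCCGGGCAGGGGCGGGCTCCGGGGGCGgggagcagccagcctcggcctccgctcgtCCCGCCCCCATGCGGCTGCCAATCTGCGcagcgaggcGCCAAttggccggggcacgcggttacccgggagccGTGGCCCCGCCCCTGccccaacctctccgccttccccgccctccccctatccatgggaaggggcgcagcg
Of its 240 bases 86 were capitals, against 28 of the 260 in Hes1, and 3 of its 5 stretches hold the GC-box letters GGGCGG on one strand or the other.

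Hes1 was surrounded by open chromatin of its own. All 8 replicated regions of its window were nearest to it. So were all 21 footprints found in both libraries, the most of any of the 10 genes when only those nearest to the gene are counted. The strongest region after the promoter lay 1.13 kb upstream, across the start of the annotated gene model, with 6.21 in replicate 1 and 4.73 in replicate 2. One 5.13 kb downstream had 4.87 and 2.71 with 8 shared footprints, and one 1.75 kb downstream had 3.61 and 3.21. Another pair lay 2.01 kb upstream (1.47 and 1.73) and 1.07 kb downstream (1.69 and 2.06). Weaker replicated regions lay 40.3 kb upstream (1.71 and 0.940) and 31.4 kb downstream (0.789 and 0.808). Hey1 had 4 replicated regions, all nearest to it. That 2.55 kb downstream, over an exon of the 3.90 kb gene, had 3.61 in replicate 1 and 3.87 in replicate 2 and was the strongest after the promoter. One 0.414 kb upstream had 1.64 and 2.47, and one 45.7 kb upstream had 1.22 and 0.920.

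At Heyl the highest values lay away from the promoter. Of the 10 replicated regions in its window (chromosome 4, gene at 123233556 to 123249875) 6 were nearest to it. That over the last part of the gene, 15.8 kb downstream of the TSS, had 3.87 in replicate 1 and 2.59 in replicate 2, and that 6.29 kb downstream had 3.53 and 2.19, both above the promoter values of 1.95 and 1.37. Another pair lay 5.11 kb upstream (3.30 and 1.45) and 5.64 kb upstream (2.45 and 1.49), and a single one 13.6 kb upstream (1.47 and 1.85). The other 4 belonged by position to Nt5c1a and Pabpc4.

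**Figure D3:**
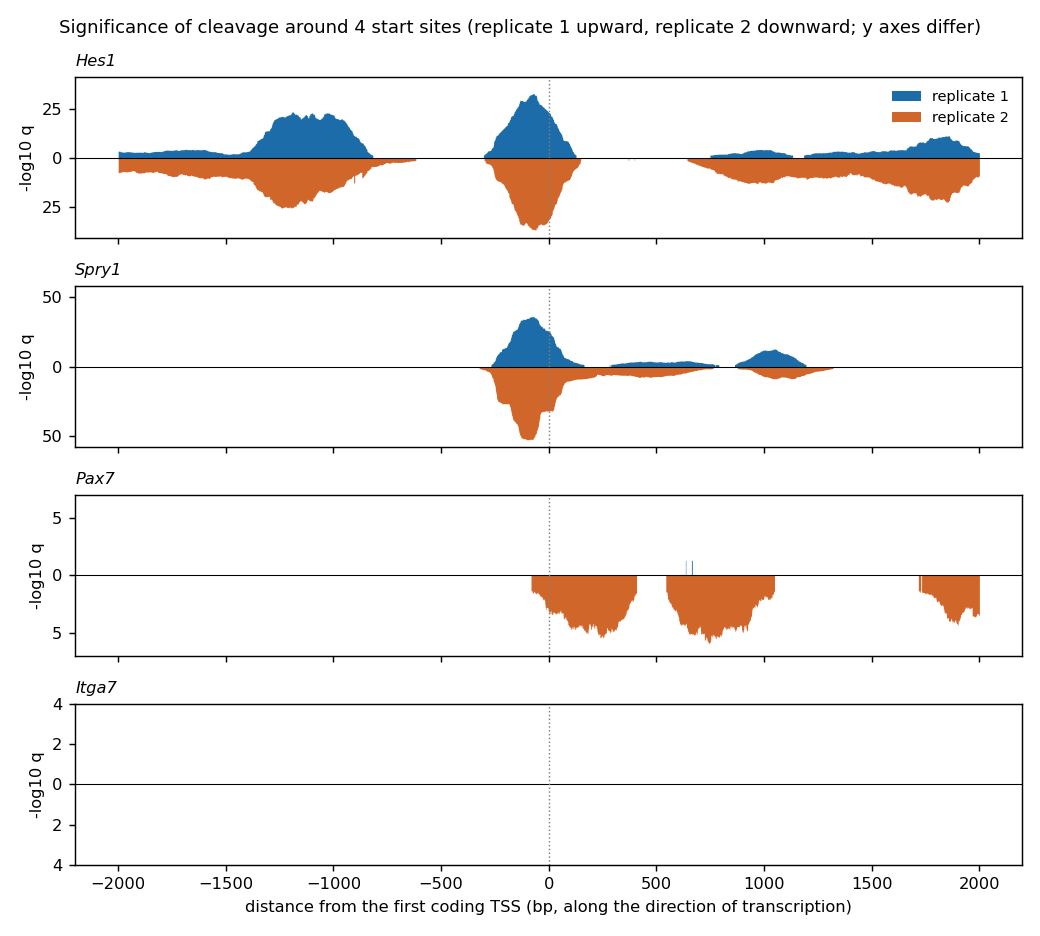
Significance of cleavage, as -log10 of the authors' q-value, within 2 kb of the first coding TSS of Hes1, Spry1, Pax7 and Itga7, with replicate 1 drawn upward and replicate 2 downward on a y axis of its own for each gene. Hes1 and Spry1 have a peak just before the TSS in both libraries, Pax7 has signal past it in replicate 2 and only hairline runs in replicate 1, and Itga7 has no significant base.

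Of the 6 genes with a replicated promoter, Spry1 (chromosome 3, 37639947 to 37644598, plus strand) differed most in promoter rank between libraries. Its promoter had a value of 7.24 in replicate 1 and 11.3 in replicate 2, at percentiles 90.4 and 99.6 of all peaks and 62.6 and 98.7 of coding promoters. Of the 6 replicated promoters it was the only one with a higher value in replicate 2. The ratio of replicate 2 to replicate 1 was 1.56, against a median of 0.679 over coding promoters, and ranked at percentile 98.6 of them, while the ratios of the other 5 genes ran from 0.581 to 0.715. Lowest q-values at the promoter were 8.46e-37 in replicate 1 and 1.58e-53 in replicate 2. With 2 libraries of 1 group the difference has no test. The promoter region (chr3:37639741-37639960, plus strand) is shown because 6 replicate 1 footprints there overlapped replicate 2 footprints, with capitals for bases inside footprints of both.
Spry1 promoter: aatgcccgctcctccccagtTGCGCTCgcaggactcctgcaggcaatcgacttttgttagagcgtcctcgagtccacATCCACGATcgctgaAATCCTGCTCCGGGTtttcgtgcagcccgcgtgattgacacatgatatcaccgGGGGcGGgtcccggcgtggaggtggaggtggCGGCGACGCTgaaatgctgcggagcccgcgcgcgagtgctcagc
A pair of the replicate 1 footprints fell in a single replicate 2 footprint of 54 bp, and another pair overlapped a single one of 7 bp.

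Beyond that peak Spry1 had 3 more own replicated regions, all within the gene and the nearest of them also within 500 bp of a coding TSS, with values from 1.12 to 2.84 in replicate 1 and 1.79 to 2.30 in replicate 2. Another 12 regions were called in replicate 2 alone, 4 upstream and 8 downstream of the gene. They were very weak, from 0.0854 to 0.427 with a median of 0.184, none above percentile 12.2 of the replicate 2 list, and none held a shared footprint. At least 12 regions in replicate 2 alone were seen in the windows of 656 of the 21851 coding genes, whose median was 0. The bases at or below q of 0.05 in the Spry1 window came to 2892 in replicate 1 and 8277 in replicate 2, of which 2427 were shared. That is 83.9% of the replicate 1 bases and 29.3% of the replicate 2 bases.

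Among the surface proteins, Sdc4, a heparan sulfate proteoglycan that acts with growth factor receptors, had the strongest promoter. Its value was 4.06 in replicate 1 and 2.60 in replicate 2, at percentiles 37.2 and 32.7 of coding promoters, and a second region 0.394 kb downstream had 2.17 and 1.74. Both were replicated. No other replicated region in its window was its own: 7 of 9 lay nearest to Sys1, Rbpjl, Matn4 or Dbndd2, the strongest at the Sys1 promoter with 10.2 in replicate 1 and 5.01 in replicate 2. Within the Sdc4 gene body (chromosome 2, 164424247 to 164443887) 2 more intronic regions were open in replicate 1 alone, at 1.37 and 1.68.

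Cdh15, the adhesion molecule M-cadherin, is on chromosome 8 (122847966 to 122867397, plus strand). Its promoter peak was modest, at 2.02 in replicate 1 and 1.45 in replicate 2, and was centred 0.445 kb downstream of the TSS. With a promoter of only 250 bp either side it was the one gene no longer counted. The highest replicated region nearest to Cdh15 lay 17.4 kb upstream, with 4.24 in replicate 1 and 5.80 in replicate 2 (percentiles 81.1 and 93.3), and held 3 shared footprints. It outranked the promoter in both libraries. A second upstream region at 12.7 kb had 1.68 and 1.60. Both lie in an intron of Gm20388, a gene model that also spans Cdh15 and Ankrd11, so position alone does not assign them.

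Itga7, the laminin-binding integrin subunit of muscle, had open chromatin inside the gene and none at the start. No run of bases at or below q of 0.05 lay within 500 bp of its 2 coding TSSs in either library, and no promoter peak was held by the longer lists. All 4 of its own replicated regions were intronic, 2.19, 4.16, 4.84 and 12 kb downstream of the first TSS. The strongest, at 4.84 kb, had 5.09 in replicate 1 and 1.73 in replicate 2 (percentiles 84.7 and 61.9), and the other 3 ranged from 1.53 to 1.76 in replicate 1 and 0.90 to 0.986 in replicate 2. In each of the 4 the percentile was higher in replicate 1. The strongest is shown (chr10:128938541-128938780, plus strand; gene at 128933818 to 128958282), with capitals for bases inside footprints of both libraries.
Itga7 intron: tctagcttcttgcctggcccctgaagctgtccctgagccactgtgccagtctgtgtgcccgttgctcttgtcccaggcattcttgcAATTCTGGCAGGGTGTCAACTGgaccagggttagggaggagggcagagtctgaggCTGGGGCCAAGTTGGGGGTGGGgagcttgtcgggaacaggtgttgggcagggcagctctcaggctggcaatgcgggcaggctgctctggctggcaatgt
Both protected stretches were called in replicate 1, which had 2 footprints here, and in replicate 2, which had 6.

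Calcr (chromosome 6, 3685680 to 3764714, minus strand), the G protein-coupled receptor of calcitonin, had no replicated region in a window of 179 kb. The 1 peak there was intronic, 23.4 kb downstream of the first TSS, with 0.394 in replicate 2 at percentile 11.5. The longer list of replicate 2 added a promoter peak of 0.263, and that of replicate 1 had none. Replicate 1 had no base at or below q of 0.05 in the window and no footprint, whereas replicate 2 had 1045 such bases and 9 footprints. The lowest q within 500 bp of a coding TSS was 0.00890 in replicate 2.

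The same windows were also counted by bases rather than by peaks. At or below q of 0.05 the 10 windows held 30865 bases in replicate 1 and 43678 in replicate 2, of which 24783 were shared. The median over the 10 was 2210 shared bases per 100 kb, against 1280 per 100 kb over all coding genes (interquartile range 382 to 2350). Heyl (4400), Hes1 (4330) and Sdc4 (3610), which also had the densest peaks, were highest, Pax7 had 519, and Pax3 and Calcr had 0. For the 7 genes other than Pax7, Pax3 and Calcr, between 79.7% and 90.5% of replicate 1 bases were shared. Of their replicate 2 bases the shared part ran from 29.3% at Spry1 to 76.4% at Cdh15. For Pax7 the share was 48.4% of replicate 1 and 28.0% of replicate 2 bases.

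**Figure D4:**
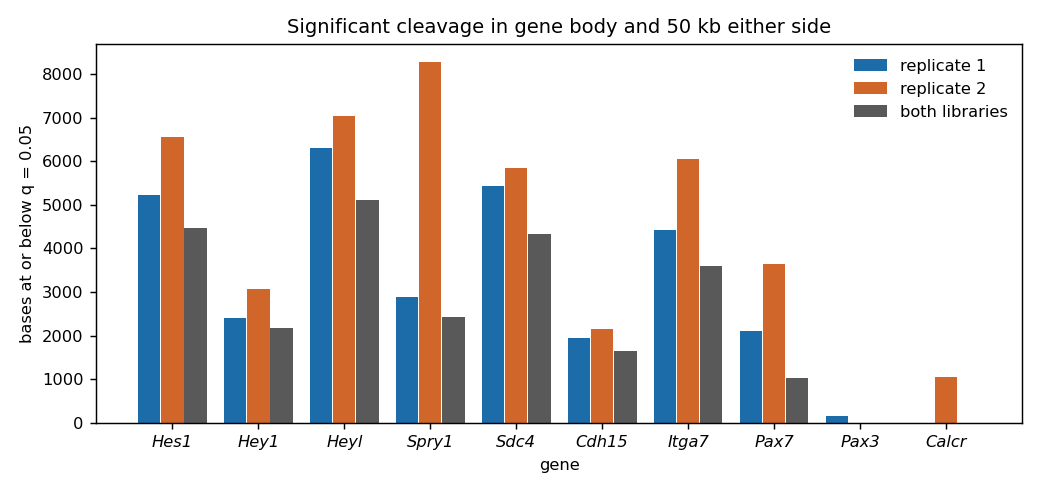
Number of bases at or below a q-value of 0.05 in the gene body and 50 kb either side of each gene, in replicate 1, in replicate 2 and in both libraries, with bars starting at 0. Spry1 has 8277 in replicate 2 against 2892 in replicate 1, Pax3 has bases in replicate 1 alone and Calcr in replicate 2 alone.

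The promoters were also compared by CpG content, measured as the observed over expected ratio of CpG within 500 bp of the first coding TSS. Of the 6 satellite cell genes at or above a ratio of 0.6, 4 had a promoter peak in both libraries, against 87.5% of all coding genes at or above it. These were Spry1 (0.98), Hey1 (0.92), Hes1 (0.67) and Sdc4 (0.61), while Pax3, at 0.67, and Pax7, at 0.64, lacked it. Of the 4 genes below 0.6, 2 had such a peak, against 24.1% of coding genes below it. These were Heyl (0.54) and Cdh15 (0.26), whereas Itga7 (0.59) and Calcr (0.24) had none. With so few members no order can be read from these shares. In the bin of 0.6 to 0.7, where Pax3, Pax7, Hes1 and Sdc4 lie, 79.3% of coding genes had one.

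**Figure D5:**
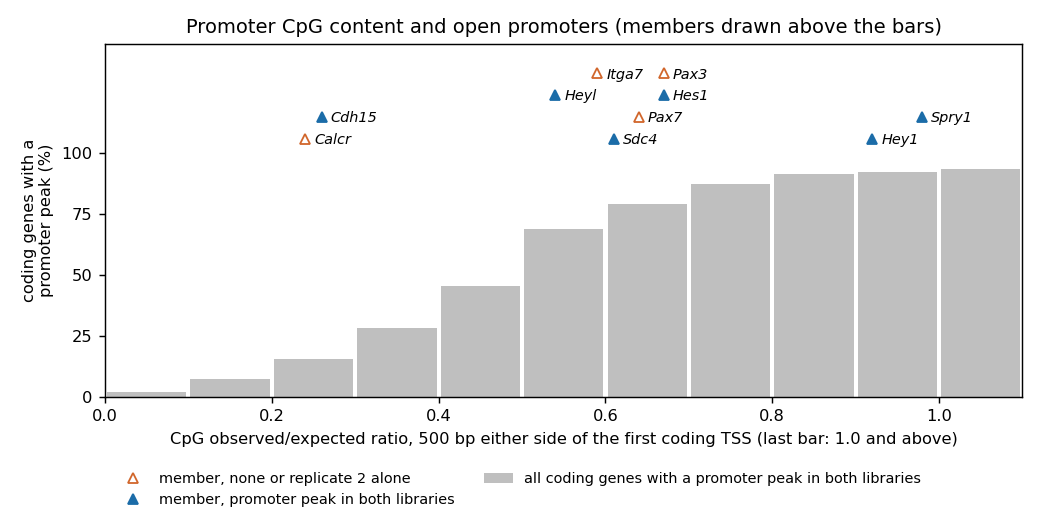
Share of all coding genes with a promoter peak in both libraries (bars, percent) by the CpG observed over expected ratio around the first coding TSS. Triangles above the bars place the 10 genes on the same x axis, filled where both libraries had a promoter peak, and their height carries no value; Pax3 and Pax7 are unfilled at ratios where 79.3% of coding genes had a peak.

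The own regions were searched, on either strand, for 19 short consensus motifs. A window of 200 bp was placed at the centre of each of the 33 regions, and the same was done for all 32662 replicated regions of the genome. The CTCF core motif was in 6 of 33 windows (18.2%), against 10.6% of all windows. Of these 6 matches 5 overlapped a footprint, wholly or in part, in each library, against 72.7% of all CTCF matches in replicated regions. The matches are set out below with 12 bases either side on the strand of the motif, the motif in capitals, because they recur at 5 of the genes.
Pax7, 25.3 kb upstream (chr4:139858841-139858876, minus strand): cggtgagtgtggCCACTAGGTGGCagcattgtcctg
Pax7, 43.9 kb upstream (chr4:139877445-139877480, plus strand): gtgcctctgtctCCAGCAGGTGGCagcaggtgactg
Cdh15, 12.8 kb upstream (chr8:122835192-122835227, plus strand): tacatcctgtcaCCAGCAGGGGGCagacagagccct
Hey1, 2.56 kb downstream (chr3:8664680-8664715, plus strand): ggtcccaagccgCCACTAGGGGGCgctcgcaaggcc
Heyl, 13.6 kb upstream (chr4:123219896-123219931, plus strand): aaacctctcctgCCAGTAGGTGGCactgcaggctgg
Hes1, 1.83 kb downstream (chr16:30067158-30067193, minus strand): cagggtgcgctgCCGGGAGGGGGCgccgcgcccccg
The match 43.9 kb upstream of Pax7 was the one that overlapped no footprint in replicate 1, where a footprint began at the next base. A match is a description of the letters and not of binding.

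The RBPJ letters TTCCCAC were in 6 of the 33 windows (18.2%), against 4.64% of all windows. They were at Hes1, Heyl, Itga7 and Pax7, so regions of 1 gene share a count. Within the regions themselves, which are wider or narrower than the windows, there were 6 matches, not all of them those of the windows. The match of the Pax7 window lay outside its region, and the Heyl match 6.09 kb downstream lay outside the window. Of the 6 matches within regions 1 overlapped a footprint in each library, against 11.9% of all RBPJ matches in replicated regions. That match is 1040 bp downstream of the Hes1 TSS. The matches at the Notch effectors are shown with the motif in capitals, on the strand of the motif, to compare the bases around it.
Heyl, 5.65 kb upstream (chr4:123227890-123227920, minus strand): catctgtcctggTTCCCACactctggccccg
Heyl, 131 bp downstream (chr4:123233672-123233702, plus strand): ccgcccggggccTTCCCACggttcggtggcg
Heyl, 6.09 kb downstream (chr4:123239629-123239659, minus strand): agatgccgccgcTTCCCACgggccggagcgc
Hes1, 78 bp upstream (chr16:30065247-30065277, minus strand): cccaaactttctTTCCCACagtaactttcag
Hes1, 1040 bp downstream (chr16:30066365-30066395, plus strand): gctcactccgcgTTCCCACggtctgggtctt
The remaining match was in the Itga7 intron, 4.13 kb downstream, and overlapped a footprint of replicate 2 alone. Hey1 regions held none of these letters.

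Shares for the other motifs differed from those of all windows in both directions. E-box letters CANNTG were in 19 windows (57.6%), against 60.5% of all, and the myogenic form CAGCTG, which is counted among them, in 5 (15.2%) against 19.8%. SP/KLF letters GGGCGG were in 14 (42.4%) against 34.8%, TEAD letters GGAATG in 6 (18.2%) against 9.72%, and HES/HEY letters CACGCG in 5 (15.2%) against 8.39%. CACGTG was in 3 windows (9.09%) against 5.73%, and RUNX letters TGTGGT in 4 (12.1%) against 10.6%. ETS letters CCGGAAG were in 2 (6.06%) against 7.05%, AP-1 letters TGANTCA in 1 (3.03%) against 6.60%, and MEF3 letters TCAGGTT in 1 (3.03%) against 2.28%. No window held the PAX homeodomain, NFI, CRE, NRF1, glucocorticoid receptor, MEF2 or SRF motifs, each found in at most 4.05% of all windows.

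Footprints found in both libraries are counted as replicate 1 footprints that overlap a replicate 2 footprint by at least 1 bp. They numbered 118 in the 10 windows, of 227 in replicate 1, and 76 of them lay nearest to the gene itself. Replicate 2 had 345 footprints there, and a single one can overlap more than 1 of the 118. Of the 33 own regions 28 held at least 1 shared footprint, as did 86.1% of all 32662 replicated regions, so the count is near the background. Hes1 had 21, Heyl 12, Spry1 9, Hey1, Itga7 and Sdc4 8 each, Cdh15 6, Pax7 4, and Pax3 and Calcr none. Their median width was 12 bp in replicate 1 and 15 bp in replicate 2. Per 100 kb of window the median of the 10 genes was 9.11 shared footprints, against 5.90 over all coding genes (interquartile range 1.23 to 12.3).

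Other genes of the same cells and pathway were counted in the same way, against the 54.2% of all coding genes and 87.5% of those with a CpG ratio at or above 0.6. Of 15 further satellite cell genes 10 (66.7%) had a promoter peak in both libraries. At or above that CpG ratio were 8 of the 15, of which 6 had such a peak. Ranked by the lower of the 2 percentiles, the strongest was at Dag1, dystroglycan, with 19.2 in replicate 1 and 8.64 in replicate 2, followed by Itgb1, the beta 1 integrin subunit, with 8.70 and 4.32, and Fgfr1, a fibroblast growth factor receptor, with 5.82 and 2.69. Vcam1, Myf5 and Tenm4 had one in replicate 2 alone, at values of 1.20, 0.664 and 0.960, and no gene of that list had one in replicate 1 alone. Over all coding genes 2.88% had one in replicate 2 alone and 1.59% in replicate 1 alone. Fgfr4 and Sdc3 had none.

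Of 17 Notch pathway genes 14 (82.4%) had a promoter peak in both libraries, and 16 of the 17 had a CpG ratio at or above 0.6. Rbpj itself had 13.8 in replicate 1 and 7.16 in replicate 2, Adam10, which cleaves the receptor, 17.8 and 6.87, and Numb, an inhibitor of Notch, 13 and 6.54. The ligand Dll4 and the receptor Notch3 had one in replicate 1 alone, against 1.59% of all coding genes, and Hes5 had none. Of the relatives of Spry1, the integrins, the syndecans and the cadherins, 11 of 13 (84.6%) had one in both, and 9 of the 13 were at or above that ratio. Among these Spry4 had 8.32 in replicate 1 and 5.12 in replicate 2, Spry2 7.57 and 4.10, and Sdc2 3.56 and 2.70. Itga3 was called in replicate 2 alone, against 2.88% of all coding genes, and Cdh5 in replicate 1 alone, against 1.59%.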

How the data were processed

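DNase-seq files of 2 gastrocnemius libraries, both of 1 group, were used as deposited, on mm10 per the labels. Per the deposited file listing, peaks, footprints and cut rates were made for each library from its own alignments. The sources used here name neither aligner nor callers, and do not say how CAST/EiJ alleles were handled. The deposited peak lists give a signal value per peak, the footprint lists a score, constant at 0.01, of which nothing but the positions was used, and the cut-rate tables a q-value per run of bases below 0.05. Read depth is unknown, so no counting interval is given. The labels number both libraries as biological replicates but give them 1 donor entry.

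Positions were matched to GENCODE M21 on GRCm38, and sequences were read from RefSeq's GRCm38.p6 by coordinate. TSSs were those of protein-coding basic transcripts outside the mitochondrial genome. Peaks overlapping by 1 bp were merged, and the nearest coding TSS to a region's centre assigned it. All 10 members are named. Of other lists, up to 3 genes with the highest promoter rank and up to 3 without one are, plus genes called in 1 library, which were chosen after their values were seen. Members, lists and motifs were chosen with earlier results of these data known. Python 3.11.15, pandas 2.3.3 and pysam 0.24.0 were used, and overlap code was tested on simulated data. Of the relatives, 13 of 14 matched a gene.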

Additional observations from a re-analysis of the deposited data

How the results depend on the processing

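The 10-gene count of promoter peaks in both libraries, 6, was 6 with the longer peak lists, with peaks no lower than the median, with 1000 bp and with all annotated transcripts, and 5 with 250 bp. Leaving out a library gave 6 to 7. Replicated regions, 49 in all and 33 own, were 30 and 20 with peaks at or above the median, 25 in all with 10 kb either side, and 73 to 78 and 47 to 53 peaks with a library left out. The longer lists gave 73 and 49, and reciprocal overlap of 50% gave 38 and 27. Shared footprints, 118, were 74 under that overlap, 97 inside peaks and 227 to 345 without a library. Shared significant bases, 24783, were 19903 at q of 0.01, 15134 at 0.001 and 30865 to 43678 without a library. Motif matches summed over motifs and windows, 72, were 46 with 100 bp windows and 91 over whole regions. The stricter or wider settings move these counts by construction. No paired analysis was possible because both libraries belong to 1 group. Where no peak is listed, the signal missed the threshold the authors set, with the read depth not known, and no error was computed for a single gene.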
